A study of Schizosaccharomyces pombe with 12 samples.

Results

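Fission yeast cells lacking *swd22* were compared directly with cells lacking *ppn1*, without reference to wild-type, to ask how alike the transcriptomes of the 2 deletion strains are and where they part. The 6 libraries compared, 3 from *swd22*Δ and 3 from *ppn1*Δ cells, were chosen by their strain labels alone and are 6 of the 12 libraries of the study, which also sequenced wild-type and *dis2*Δ cells. Both deletion strains are h+ haploids, in which a HygMX cassette (hygromycin resistance) stands at *ppn1* (labelled ppn1∆::HygMX, laboratory strain AS1983) or at *swd22* (labelled swd22::HygMX, with swd22_delta as genotype, laboratory strain AS1984). All cultures were harvested in log phase of vegetative growth in YES, a rich yeast extract medium, at 30 °C, and poly(A)+ RNA was made into strand-specific libraries. Each genotype is 1 laboratory strain grown as 3 biological replicates, so a difference that the strains carry for other reasons than the deletion cannot be told apart from it. The genotype field of the *ppn1*Δ libraries reads pp1_delta, while their titles and source name ppn1∆; the *ppn1* counts given below go with the titles.

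Ppn1 and Swd22 are, with the protein phosphatase Dis2, the components of the DPS module of the cleavage and polyadenylation factor (CPF), the complex that cuts nascent transcripts of RNA polymerase II, adds the poly(A) tail and takes part in transcription termination. Ppn1 is the scaffold that holds Swd22, a WD-repeat protein, and Dis2, a protein phosphatase of the PP1 family. In fission yeast the termination of upstream non-coding transcripts sets the level of nearby phosphate-responsive genes, *pho1* and *pho84* among them, because a transcript that is not terminated early runs into the promoter of the mRNA.

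The deposited table holds counts for 6986 loci, and the 6 libraries held 17616688 to 23435936 counts each. Within each strain the counts of any 2 replicates varied beyond sampling noise (chi-square divided by its degrees of freedom 9.84 to 23.6), and each library was taken as a sample of its own. No library was left out. After a filter on low counts, 6046 loci were tested with edgeR's quasi-likelihood test on these 6 libraries. Normalized counts are scaled with TMM factors to a library of 20899100 counts, differences are log2 values of *swd22*Δ minus *ppn1*Δ, and adjusted p-values are Benjamini-Hochberg values over all 6046 loci. Called means an adjusted p at or below 0.05, with no cutoff on fold. The 2 deleted genes and SPAC824.03c, the neighbor of *swd22*, are described apart, and all counts of loci given below are over the other 6043.

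The strains were close. Between a *swd22*Δ and a *ppn1*Δ library the root mean square log2 difference over 5200 loci with a mean of at least 100 normalized counts in either strain was 0.193 to 0.296, with a median of 0.216 over the 9 pairs. Replicates lay 0.169 to 0.226 apart within *ppn1*Δ and 0.164 to 0.231 apart within *swd22*Δ, so that the distances between the strains overlapped those within them. The *dis2*Δ libraries lay farther off, at a median of 0.288 from *swd22*Δ and 0.343 from *ppn1*Δ, and wild-type libraries farther still, at 0.433 and 0.459. These distances were taken with all 12 libraries scaled together, and pairs that share a library are not independent, so they are a description.

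**Figure D1:**
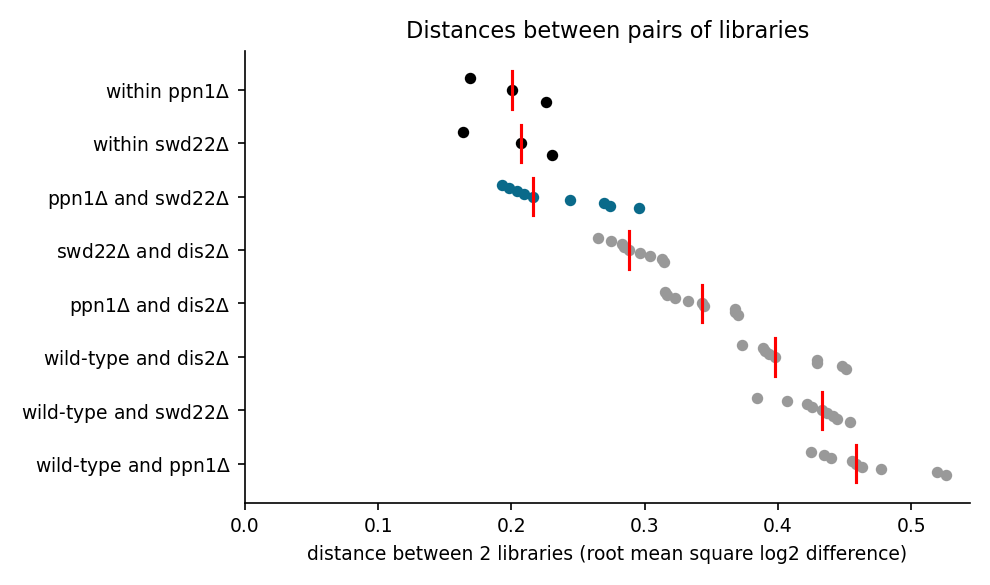
Distance between 2 libraries (root mean square log2 difference over 5200 loci, x axis) for each pair of libraries, by the kind of pair (rows); each point is 1 pair and each red line the median. Pairs of *ppn1*Δ and *swd22*Δ libraries have a median of 0.216, against 0.200 within *ppn1*Δ and 0.207 within *swd22*Δ, and every pair of a wild-type with a mutant library lies at 0.373 or above.

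Per locus, the median size of the log2 difference was 0.117, and 95% of loci had a size under 0.421. The 95% confidence interval of the difference lay wholly within 1.5-fold either way for 5013 of 6043 loci (83.0%). Of the 5200 loci with the higher level, 4872 (93.7%) were shown to be within 1.5-fold by this measure, 5159 (99.2%) within 2-fold and 1782 (34.3%) within 1.2-fold. Of the 6043 loci, 5 had an interval wholly beyond 1.5-fold, *cbl1*, *inv2* and *ddr48* and the scarce SPNCRNA.754 and SPNCRNA.576. For the rest the intervals reached past 1.5-fold without lying wholly beyond it, and closeness was not shown at this depth. Most of these were scarce transcripts: among non-coding loci 431 of 1002 (43.0%) had an interval within 1.5-fold, against 4558 of 4946 coding loci (92.2%). With the cutoffs the study applied to its mutants (a 2-fold difference or more, a mean of 100 normalized counts or more in either strain, and the same limit on adjusted p) only the 3 loci set apart passed, 0.0496% of 6046, and 0 of the other 6043; DESeq2 also passed 0 of them, while 1096 of the 6043 had an unadjusted p under 0.05 by edgeR. Leaving out 1 library raised that 0 to at most 2 (without *ppn1*Δ replicate 1).

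**Figure D2:**
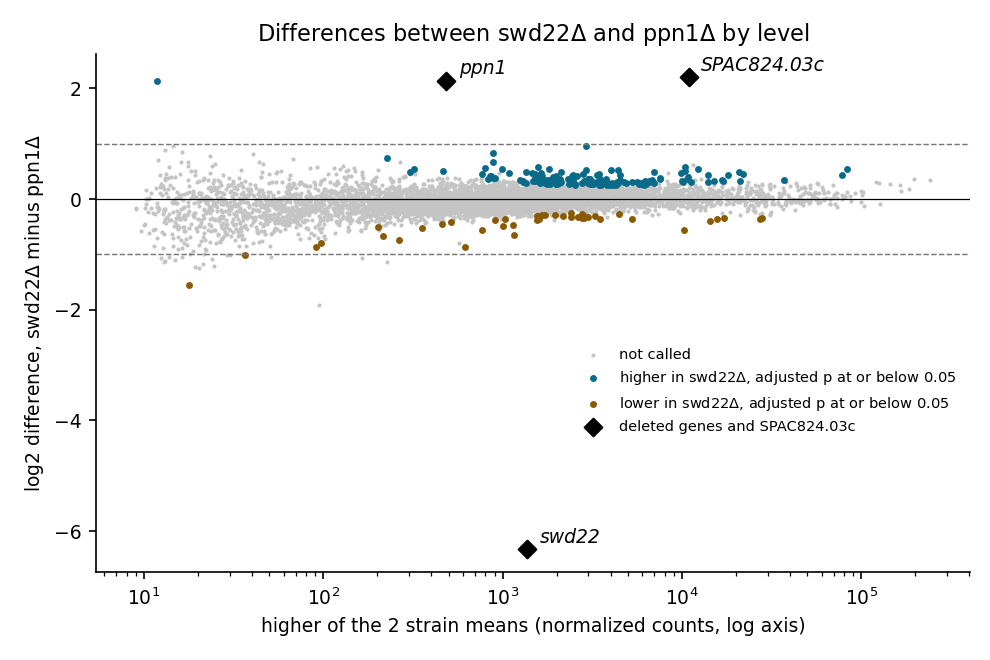
Log2 difference of each tested locus (y axis, *swd22*Δ minus *ppn1*Δ) against the higher of its strain means (x axis, normalized counts, log scale), with dashed lines at 2-fold; colored points are called. Of the 189 called, 176 lie under 1.5-fold, while the scarce SPNCRNA.754 lies at 2.14 and SPNCRNA.576 at -1.55; the loci set apart lie at 2.14 (*ppn1*), 2.20 (SPAC824.03c) and -6.32 (*swd22*).

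The deleted genes checked the labels. *swd22* (SPAC824.04, chromosome I, 1690266 to 1691715, plus strand, positions in build ASM294v3) had 26, 10 and 13 raw counts in the *swd22*Δ libraries and 1509, 1209 and 1501 in the *ppn1*Δ libraries, or 17.0 ± 8.86 against 1365 ± 94.6 normalized counts (SD, n = 3 each), a log2 difference of -6.32 (SE 0.18, adjusted p 1.1e-18). *ppn1* (SPCC74.02c, chromosome III, 1924680 to 1928307, minus strand) had 108, 86 and 150 raw counts in *ppn1*Δ and 419, 553 and 434 in *swd22*Δ, or 109 ± 14.0 against 485 ± 52.3 normalized counts (SD, n = 3 each; log2 difference 2.14, SE 0.14, adjusted p 2.1e-12). The counts cover annotated exons with their untranslated regions and do not separate the deleted part, and 794 bases of *ppn1* are shared with *sly1* on the other strand. The study reported that the deleted coding sequence of each gene had no reads in its null strain. Where the remaining counts lie was not tested here.

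SPAC824.03c, which encodes an uncharacterized protein and is transcribed away from *swd22* with 127 bases between the annotated genes (chromosome I, 1688751 to 1690138, minus strand), was the only other locus with a difference of this size and level. It had 2431, 2318 and 2353 normalized counts in the *ppn1*Δ libraries and 11638, 9671 and 11296 in the *swd22*Δ libraries. The groups were far apart, with 10868 ± 1051 against 2367 ± 58.0 (SD, n = 3 each), a 4.59-fold higher level in *swd22*Δ (log2 difference 2.20, SE 0.08, adjusted p 1.1e-18). Wild-type libraries, scaled with all 12 together, had 2188 to 2302 for this gene. The cassette lies at the neighboring gene in the *swd22*Δ strain only, so an effect of the cassette on SPAC824.03c and an effect of losing Swd22 cannot be told apart in this comparison.

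On the other side of *swd22*, *vps16* (a subunit of the HOPS tethering complex of the vacuole, 217 bases downstream on the same strand) had 624, 649 and 669.6 normalized counts in *ppn1*Δ and 838, 895 and 854 in *swd22*Δ, a log2 difference of 0.41 (SE 0.10, adjusted p 0.016). All 3 *swd22*Δ libraries were above all 3 *ppn1*Δ libraries. It was not called without *ppn1*Δ replicate 1 (adjusted p 0.058), without *swd22*Δ replicate 1 (0.066) or when scaled by library size only (0.12). The non-coding RNA SPNCRNA.754, on the minus strand beyond SPAC824.03c and within *bst1* of the plus strand, had 1.89, 2.34 and 3.35 normalized counts in *ppn1*Δ and 10.3, 12.7 and 12.3 in *swd22*Δ (log2 difference 2.14, SE 0.53, adjusted p 0.021), the lowest level of any called locus. Its call rested on few counts and was lost in 4 of the 6 fits without 1 library (adjusted p 0.053 to 0.085). *bst1* (0.11), *tim14* (0.02) and *glo2* (0.23, adjusted p 0.089) were not called, nor was SPNCRNA.755, which is annotated over *swd22* on the other strand (-0.67, adjusted p 0.20). Around *ppn1*, *sly1* (0.08), *ssp2*, the catalytic subunit of AMP-activated kinase (-0.17), *mug24* (-0.30) and SPNCRNA.506 (-0.91) were not called either.

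**Figure D3:**
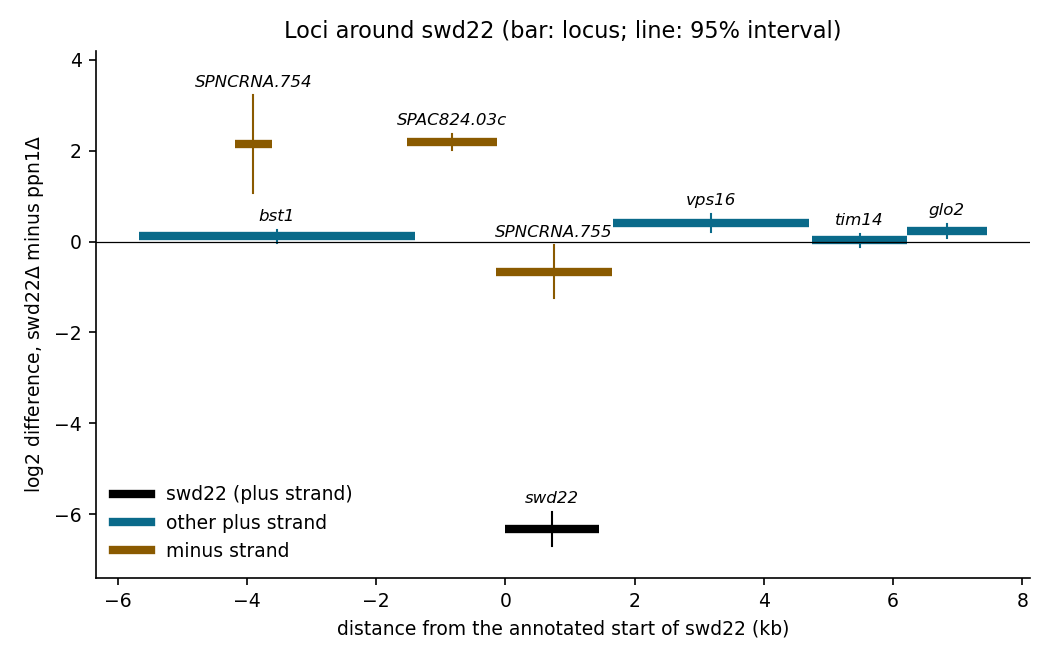
Log2 difference (y axis, *swd22*Δ minus *ppn1*Δ) of *swd22* and the annotated loci around it, each drawn as a bar over its span (x axis, distance from the annotated start of *swd22* in kb) with its 95% confidence interval as a thin line. SPAC824.03c at 2.20 and the scarce SPNCRNA.754 at 2.14, both on the minus strand, lie above the others, *vps16* lies at 0.41, and *swd22* itself at -6.32.

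Of the other 6043 loci, 189 (3.13%) were called: 146 (2.42%) were higher in *swd22*Δ and 43 (0.712%) lower. Coding genes made up 181 of them, 143 higher and 38 lower, and non-coding loci 8, 3 higher and 5 lower. The differences were small, with a median of 1.26-fold among loci called higher and 1.28-fold among those called lower, and 176 of the 189 were under 1.5-fold. In 787 loci (13.0%) all 3 *swd22*Δ libraries lay above all 3 *ppn1*Δ libraries, and in 545 loci (9.02%) all lay below. The number of calls depended on single libraries: it fell to 50 without *swd22*Δ replicate 1 and to 70 without *ppn1*Δ replicate 3, and rose to 595 without *swd22*Δ replicate 2. All 189 kept their direction in each of these fits, and 33 were called in each of the 6 fits without 1 library, 29 of them higher and 4 lower (*ddr48*, *lsd90*, *hsp9* and SPAC22F8.05).

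The differences also moved with properties of the transcripts. Across coding genes with at least 100 normalized counts, the median log2 difference rose from -0.08 in the quartile with the lowest GC content to 0.06 in the quartile with the highest, and calls from 14 higher and 12 lower to 71 higher and 9 lower. From the quartile with the lowest level to that with the highest the median went from -0.08 to 0.04, and the quartile of shortest transcripts had a median of -0.07. With the GC trend of each library removed 99 loci were called higher and 45 lower, and 111 of the 189 were called again; with length removed as well, 83 and 35, and 95 were called again. The part that sequence composition had in each result was otherwise not tested. Scaling by library size only gave 66 higher and 47 lower, with the median of all loci at -0.07 in place of -0.02, so a shift common to all genes is not measured here and the share of higher calls (77.2%, or 58.4% with that scaling) depends on the scale.

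The largest called rise of a coding gene was that of *cbl1*, and genes of amino acid biosynthesis stood among the larger ones. *cbl1*, annotated as cystathionine beta-lyase, an enzyme that releases homocysteine from cystathionine, had 1628, 1337 and 1554 normalized counts in *ppn1*Δ and 2600.5, 2690.3 and 3459.7 in *swd22*Δ. The lowest *swd22*Δ library was above the highest *ppn1*Δ library, and the log2 difference was 0.95 (SE 0.11, adjusted p 0.00019). *met17*, the homocysteine synthase that fixes sulfide into homocysteine, had 2899, 2824 and 2721 against 4083, 4319 and 3714 (log2 difference 0.52, SE 0.07, adjusted p 7.4e-05). *lys12*, homoisocitrate dehydrogenase of lysine synthesis, had 9303, 7846 and 8168 against 11614, 11947 and 13282 (0.54, SE 0.09, adjusted p 0.00026). Each of these genes was separated between the strains in every library and was called in each fit without 1 library.

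*lys2*, the homoaconitate hydratase of the same pathway (0.35, adjusted p 0.0096), *his4* of histidine synthesis (0.31, adjusted p 0.025), *leu1*, the 3-isopropylmalate dehydrogenase of leucine synthesis (0.32, adjusted p 0.038), and *arg3*, the ornithine carbamoyltransferase of arginine synthesis (0.28, adjusted p 0.040), were also called higher. These 4 with *met17* and *lys12* made 6 of the 52 measured genes of the amino acid biosynthesis list, which does not hold *cbl1*, that rose, against 2.42% of all loci, and 0 fell. The median log2 difference was 0.12 against -0.02 over all loci, and in 18 of the 52 all *swd22*Δ libraries lay above all *ppn1*Δ libraries, against 13.0% of all loci. Summed over the list, *swd22*Δ libraries were 11.2% higher, with no overlap between the strains. The number called was 2 without *ppn1*Δ replicate 3 or without *swd22*Δ replicate 1, 4 with GC removed, and 8 without *swd22*Δ replicate 2. The enzymes of purine synthesis *ade10* (0.43) and *ade7* (0.35) rose among 17 measured genes of purine and pyrimidine synthesis, of which 0 fell. That was 11.8% called higher, against 2.42% of all loci, at a list median of 0.05.

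These genes did not stand in 1 order relative to wild-type. With all 12 libraries scaled together, *cbl1* had a mean of 4206 in wild-type, 2867 in *swd22*Δ and 1472 in *ppn1*Δ, so that the *swd22*Δ level lay between the others. For *met17* the wild-type mean was 2465, below both *ppn1*Δ (2749) and *swd22*Δ (3969.8). For *lys12* wild-type (12055) and *swd22*Δ (12073) were alike in level and *ppn1*Δ was at 8241. These levels are a description without a test.

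Genes of glycolysis and ethanol fermentation, the main route of carbon in fission yeast grown on glucose, lay mostly above their *ppn1*Δ level in *swd22*Δ, and 2 of them rose. *pdc101*, which encodes a pyruvate decarboxylase, the step from pyruvate to acetaldehyde, had 58740.2, 60966.5 and 51819 normalized counts in *ppn1*Δ and 89021, 82527 and 78417 in *swd22*Δ (log2 difference 0.54, SE 0.10, adjusted p 0.0010). *eno101*, an enolase, had 63359.9, 52911 and 58045 against 77085, 78293 and 78709 (0.43, SE 0.10, adjusted p 0.010). For both genes the lowest *swd22*Δ library exceeded the highest *ppn1*Δ library. Of 18 measured genes these 2 rose (11.1%, against 2.42% of all loci) and 0 fell, at a list median of 0.19. The aldolase gene *fba1* (0.34, adjusted p 0.057), the phosphoglycerate mutase gene *gpm1* (0.36, adjusted p 0.054) and the alcohol dehydrogenase gene *adh1* (0.28, adjusted p 0.10) were not called.

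In 10 of these 18 genes all *swd22*Δ libraries lay above all *ppn1*Δ libraries, and in 0 below (13.0% and 9.02% of all loci). The summed level was 20.8% higher with no overlap between the strains. With 1 library left out the number called ranged from 1 (without *ppn1*Δ replicate 2 or *swd22*Δ replicate 1) over 5 (without *ppn1*Δ replicate 1) to 7 (without *swd22*Δ replicate 2). It was 8 with DESeq2 or when fitted with all 12 libraries, and 0 in the test against a 1.2-fold threshold. The list median was 0.11 with GC removed and 0.10 with length removed as well, and the number called was again 2 in both. Hexose transporters and glucose repression genes, which act upstream of this pathway, had 0 of 13 called by edgeR, 1 by DESeq2 and 2 at an unadjusted p under 0.05, with a median of 0.00. *inv2*, annotated as a beta-fructofuranosidase, had 502, 423 and 547 normalized counts in *ppn1*Δ and 918, 755 and 968 in *swd22*Δ (log2 difference 0.84, SE 0.12, adjusted p 7.4e-05). On the scale of 12 libraries its *swd22*Δ level lay between that of *ppn1*Δ and the wild-type mean of 1660.2.

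Among called coding genes with a mean of at least 100 normalized counts, the largest fall was that of *ddr48*, a stress-responsive gene. It had 569, 657 and 626 normalized counts in *ppn1*Δ and 319.6, 399.9 and 297 in *swd22*Δ, with no overlap (log2 difference -0.86, SE 0.12, adjusted p 7.4e-05). *lsd90* had 1271, 1111 and 1071 against 647, 782 and 774 (-0.65, SE 0.10, adjusted p 0.00019). *hsp9*, a small stress protein of the plasma membrane, had 10792, 9299 and 10572 against 7538, 6187 and 7132 (-0.56, SE 0.09, adjusted p 0.00020). In each of these genes every *swd22*Δ library lay below every *ppn1*Δ library. On the scale of 12 libraries all 3 had lower means in wild-type than in either deletion strain: 68.5 for *ddr48*, 255 for *lsd90* and 4369 for *hsp9*.

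The catalase gene *ctt1*, which removes hydrogen peroxide, had 3749, 3364 and 3287 normalized counts in *ppn1*Δ and 2636, 2559 and 2954 in *swd22*Δ (log2 difference -0.35, SE 0.08, adjusted p 0.0070), and SPAC22F8.05, annotated as a trehalose-phosphate synthase, fell by 0.46 (SE 0.10, adjusted p 0.0046). The call of *ctt1* was lost without *swd22*Δ replicate 1 (adjusted p 0.089). The stress list that holds *hsp9* and *ctt1* was mixed. Among 17 genes of the response to the stress-activated kinase Sty1 and its transcription factor Atf1, *hsp9* and *ctt1* fell, *tpp1*, the trehalose-6-phosphate phosphatase, rose (0.27, adjusted p 0.050), and the median was -0.06. That was 11.8% lower and 5.88% higher, against 0.712% and 2.42% of all loci. With GC removed, library size only or the replicate number as a block, 0 were called higher. The same held without *ppn1*Δ replicate 2 or 3 and without *swd22*Δ replicate 1 or 3. *sty1* (-0.01) and *atf1* (-0.07) themselves were not called. In the oxidative stress list 1 of 17 rose (5.88%, against 2.42% of all loci), the transcription factor gene *prr1* (0.26, adjusted p 0.050), and 0 fell. The number called there was 0 with GC removed and in each fit without 1 library, except 2 without *swd22*Δ replicate 2.

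Heat shock chaperones had 0 of 16 called by edgeR (1 by DESeq2, and 1 at an unadjusted p under 0.05), at a median of 0.18, with *hsp104* at 0.25 and *hsp90* at 0.25. Their summed level was lowest in *ppn1*Δ replicate 2 and overlapped between the strains, and the median was 0.05 without that library and 0.31 without *ppn1*Δ replicate 3. With edgeR 4 were called higher with the replicate number as a block, 3 without *ppn1*Δ replicate 1 and 1 without *swd22*Δ replicate 2 or when fitted with all 12 libraries. Other called falls among the largest were *cmt2*, a catechol O-methyltransferase (-0.74), SPBC1348.12, annotated as a DNA-binding transcription factor (-0.66), *mug147* (-0.51), SPBC11C11.06c (-0.50), SPBC428.10 (-0.42) and the small plasma membrane proteolipid gene *pmp3* (-0.39).

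**Figure D4:**
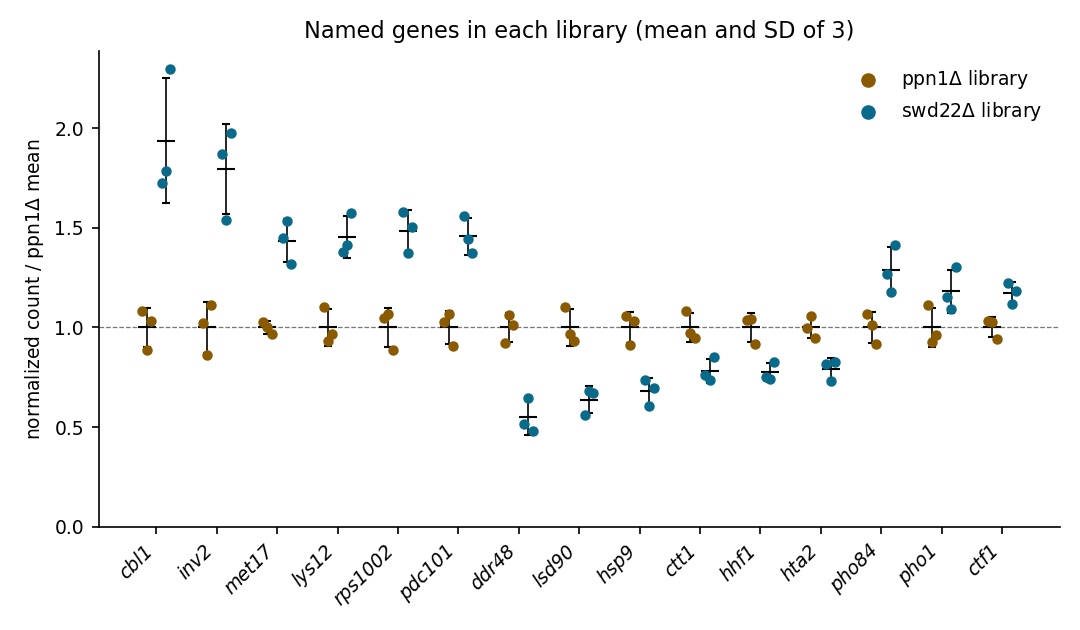
Normalized count in each library divided by the mean of the 3 *ppn1*Δ libraries (y axis) for 15 named genes (x axis); points are libraries, and the bars give the mean and SD of 3 replicates. Values for *cbl1* to *pdc101* lie above 1 in all *swd22*Δ libraries, those for *ddr48* to *hta2* below 1 in all of them, and *pho84*, *pho1* and *ctf1* show rises of 0.36, 0.24 and 0.23 in log2, of which only the first was called.

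Histone mRNAs lay lower in *swd22*Δ than in *ppn1*Δ, 4 of them past the test. Canonical histone genes encode the proteins that wrap DNA into nucleosomes and are transcribed mainly in S phase. *hhf1*, for H4, had 28146, 28286 and 24797 normalized counts in *ppn1*Δ and 20326, 20114 and 22447 in *swd22*Δ (log2 difference -0.37, SE 0.09, adjusted p 0.018). *hhf2* (-0.37, adjusted p 0.018) and *hhf3* (-0.34, adjusted p 0.029), the other H4 genes, fell as well. *hta2*, for H2A, had 27789, 29469.8 and 26394 against 22816, 20378 and 23108 (-0.34, SE 0.09, adjusted p 0.033). Each of the 4 genes was separated between the strains in every library. On the scale of 12 libraries the wild-type means were 22473.1 for *hhf1*, 12764.4 for *hhf2*, 14121.4 for *hhf3* and 24756.5 for *hta2*. In the same order *ppn1*Δ had 26430.9, 15318.8, 16660.7 and 27226.5, and *swd22*Δ had 20608.5, 11965.4, 13218.2 and 21732.1. Wild-type thus lay between the 2 deletion strains in each of the 4, a description without a test.

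Of 11 measured histone genes, 4 fell, against 0.712% of all loci, and 0 rose, with a median of -0.28. In 8 of 11 all *swd22*Δ libraries lay below all *ppn1*Δ libraries, against 9.02% of all loci. The H3 genes *hht1* (-0.28, adjusted p 0.079), *hht2* (-0.24, adjusted p 0.17) and *hht3* (-0.28, adjusted p 0.081), the H2A gene *hta1* (-0.28, adjusted p 0.076) and the H2B gene *htb1* (-0.23, adjusted p 0.17) were not called, and neither were the variants *pht1* (H2A.Z, 0.04) and *cnp1* (the centromeric H3, 0.16). The summed level was 18.1% lower in *swd22*Δ than in *ppn1*Δ, with no overlap between the strains. The number called was 0 without *swd22*Δ replicate 1, 2 without *ppn1*Δ replicate 2, 8 with GC removed and 7 with DESeq2, while the median stayed between -0.33 and -0.22 in all alternatives. Among other genes of the cell cycle, 0 of 16 targets of the transcription factor MBF, which acts at the start of S phase, were called by edgeR (median -0.03) and 0 of 20 genes of mitosis and cell separation (median -0.03); DESeq2 called 0 in both, and 4 and 3 had an unadjusted p under 0.05.

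For the mitochondrial respiratory chain and ATP synthase, which make ATP from the oxidation of nutrients, 4 genes fell. *tim11*, a subunit of the membrane part of ATP synthase, had 2504, 2178 and 2513 normalized counts in *ppn1*Δ and 1883, 1807 and 2047 in *swd22*Δ (log2 difference -0.33, SE 0.08, adjusted p 0.014). *cox13*, of cytochrome c oxidase, had 2723, 2539 and 3042 against 1957, 2314 and 2285 (-0.34, SE 0.08, adjusted p 0.016). *qcr6* (-0.33) and *qcr8* (-0.30), of the cytochrome bc1 complex, were called too. That made 4 of 52 that fell, against 0.712% of all loci, and 0 that rose. The list median was -0.16, and -0.09 with GC and length removed. In the libraries 12 of 52 lay wholly below and 4 wholly above, against 9.02% and 13.0% of all loci. The called number was 0 without *ppn1*Δ replicate 3 or without *swd22*Δ replicate 1, 2 with GC or with GC and length removed, and 8 without *swd22*Δ replicate 3.

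**Figure D5:**
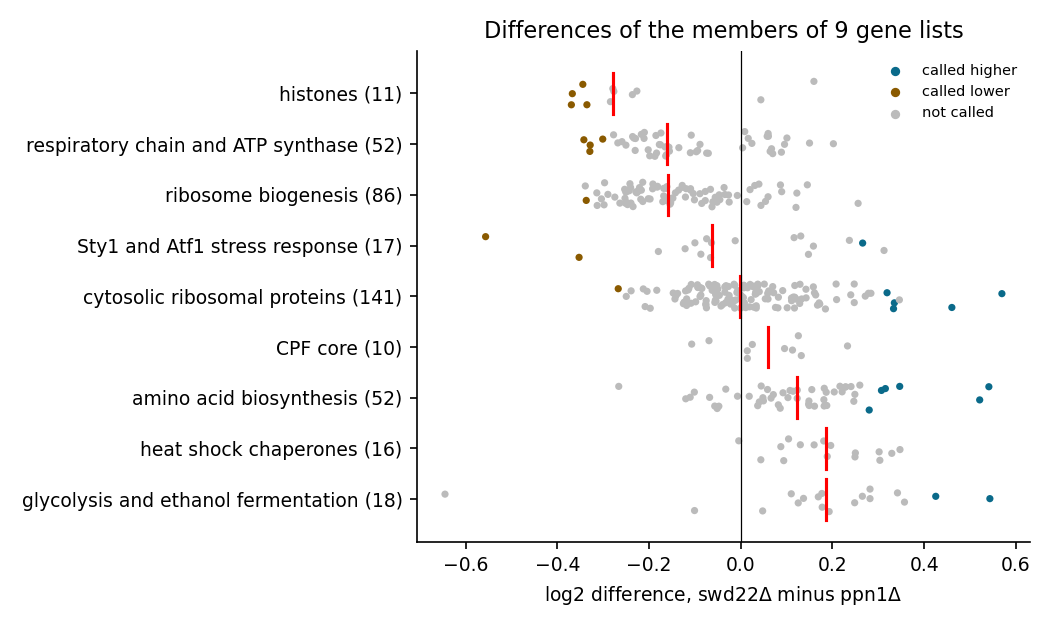
Log2 difference (x axis, *swd22*Δ minus *ppn1*Δ) of each measured member of 9 gene lists (rows, number of genes in parentheses), colored where called; red lines are list medians. Histones lie lowest, with a median of -0.28, and glycolysis and fermentation genes highest, at 0.19, with heat shock chaperones at 0.18 but 0 called.

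In translation the strains were near each other. Of 141 genes for cytosolic ribosomal proteins 5 rose and 1 fell (median 0.00), shares near the 2.42% and 0.712% of all loci, and the number that rose was 1 without *swd22*Δ replicate 1, 2 without *ppn1*Δ replicate 3 and 11 without *swd22*Δ replicate 2. *rps1002*, 1 of a pair of genes for the ribosomal protein eS10, had 7304, 7445 and 6179.7 normalized counts in *ppn1*Δ and 11003, 9567 and 10485 in *swd22*Δ (log2 difference 0.57, SE 0.09, adjusted p 0.00018), while its paralog *rps1001* was at 0.14 (adjusted p 0.40). *rpl1602* for uL13 rose by 0.46 (adjusted p 0.0024), with its paralog *rpl1601* at 0.16 (adjusted p 0.35). All 51-base words of *rps1002* and *rpl1602*, the length of the reads, are unique to them in the genome, so that the paralogs could be counted apart. The difference between paralogs was not tested. *rps001* (0.33), *rps2* (0.34) and *rpp102* (0.32) also rose and *rpl3402* (-0.27) fell. With GC removed the count was 2 higher and 6 lower, so no direction is given for the list.

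Among 50 translation factors, *tef101* (elongation factor 1-alpha, 0.44), the mitochondrial *tuf1* (0.30) and *eif21*, for eIF2A (0.27), rose and 0 fell; only 34.9% of 51-base words of *tef101* are unique, so its counts may be shared with its paralogs. Of 32 aminoacyl-tRNA ligases, *mrs1* (arginine, 0.31) and *drs1* (aspartate, 0.30) rose. Called higher were 6% of the translation factors and 6.25% of the ligases, against 2.42% of all loci, at list medians of 0.01 and 0.02. Of 86 genes of ribosome biogenesis 1 fell, *llp1* (-0.34, adjusted p 0.0071), against 0.712% of all loci, at a list median of -0.16. In the libraries 11 of 86 lay wholly below and 3 wholly above, against 9.02% and 13.0% of all loci. Without *swd22*Δ replicate 2 the number that fell was 30, without *ppn1*Δ replicate 1 it was 9, and it was 0 with GC removed or without *swd22*Δ replicate 1. *rpa49*, a subunit of RNA polymerase I, fell by 0.30 among 18 subunits of polymerases I and III (5.56%, against 0.712% of all loci). Of the 18, 0 were called with GC removed or without *ppn1*Δ replicate 3 or *swd22*Δ replicate 1, and 5 fell without *swd22*Δ replicate 2. In the RNA polymerase II list, *rpb2*, the second largest subunit (0.25), and *ell1*, an elongation factor (0.28), rose among 14. That was 14.3%, against 2.42% of all loci, at a list median of -0.02 with 6 differences positive and 8 negative. The number called was 0 with GC removed, with library size only, or without *ppn1*Δ replicate 1, *ppn1*Δ replicate 3 or *swd22*Δ replicate 1. It was 3 with DESeq2 or when fitted with all 12 libraries.

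Genes of the CPF were close in both strains apart from the deleted ones. Of its 10 core subunits 0 were called by edgeR or by DESeq2 and 1 had an unadjusted p under 0.05, and all 10 had a confidence interval within 1.5-fold. The largest difference was that of *ctf1*, a core subunit, with 1265, 1258 and 1155 normalized counts in *ppn1*Δ and 1502, 1370 and 1448 in *swd22*Δ (log2 difference 0.23, SE 0.08, adjusted p 0.093). Its libraries did not overlap, and its adjusted p was 0.031 without *swd22*Δ replicate 2 and 0.043 when fitted with all 12 libraries. The poly(A) polymerase gene *pla1* was at 0.03, the endonuclease gene *ysh1* at -0.11 and the phosphatase gene *ssu72* at -0.07. *dis2*, for the phosphatase of the DPS module, had 14981, 14559.5 and 13201 in *ppn1*Δ and 13474, 13152 and 14912 in *swd22*Δ, with overlapping groups (-0.04, 95% interval -0.22 to 0.14). All 13 factors of 3′ processing and termination outside the CPF also had an interval within 1.5-fold, with 0 called by edgeR, 1 by DESeq2 and 4 at an unadjusted p under 0.05.

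The phosphate genes *pho84* and *pho1* were far under their wild-type level in both strains, and *pho84* was higher in *swd22*Δ than in *ppn1*Δ. *pho84*, for the phosphate transporter of the plasma membrane, had 2475, 2346 and 2128 normalized counts in *ppn1*Δ and 2939, 2730.2 and 3270.3 in *swd22*Δ, with no overlap (log2 difference 0.36, SE 0.08, adjusted p 0.0070). In build ASM294v3 *pho84* shares 1870 bases on the same strand with *prt2*, the non-coding gene upstream of it. How reads over that stretch were assigned was not tested, so the counts may not be of the mRNA alone. *pho1*, for the secreted acid phosphatase, had 2443, 2035 and 2119 against 2532, 2399 and 2864, and the groups overlapped (0.24, SE 0.08, adjusted p 0.091). On the scale of 12 libraries the wild-type means were 31617 for *pho84* and 30414 for *pho1*, against 2261 and 2148 in *ppn1*Δ and 2929.8 and 2555 in *swd22*Δ. *tgp1*, for a glycerophosphodiester transporter (-0.26, 95% interval -0.53 to 0.00), and SPBC19C7.04c, for a protein conserved among fungi (-0.27, -0.49 to -0.04, adjusted p 0.18), had differences of the other sign and were not called. Of 10 genes of phosphate and inositol pyrophosphate metabolism 1 rose (10%, against 2.42% of all loci). All 10 had an interval within 1.5-fold, among them the inositol pyrophosphate kinase gene *asp1* (0.00) and the pyrophosphatase gene *aps1* (0.07). The call of *pho84* was lost without *ppn1*Δ replicate 3 (adjusted p 0.092), *swd22*Δ replicate 1 (0.053) or *swd22*Δ replicate 3 (0.058).

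Of 1002 non-coding loci tested, 3 rose (0.30%) and 5 fell (0.50%), against 2.42% and 0.712% of all loci, and their median was -0.10. *nam3*, a long non-coding RNA near the right end of chromosome II, had 716, 782 and 811 normalized counts in *ppn1*Δ and 549, 594 and 427 in *swd22*Δ, with no overlap (log2 difference -0.55, SE 0.12, adjusted p 0.0050). SPNCRNA.836 fell by 0.52 and SPNCRNA.304 by 0.46, while SPNCRNA.1471 (0.56) and SPNCRNA.771 (0.49) rose. The other called falls were of scarce loci, SPNCRNA.576 at -1.55 and SPNCRNA.316 at -0.79, both with a mean under 100 normalized counts. SPNCRNA.836, SPNCRNA.304, SPNCRNA.1471 and SPNCRNA.771 each overlap a coding gene on the other strand that had the higher level (*myp2* over 4786 bases, SPBC1271.05c over 174, *ser2* over 54 and *arb1* over 1640), and the strand setting of the counting is not given in the sources used here. SPNCRNA.1471 also shares 1488 bases on the other strand with *pof9*, whose higher strain mean was 674 normalized counts, against 798 for SPNCRNA.1471. Of all 189 called loci 97 overlapped another tested locus. For 23 of the 189 a tested locus on the other strand, coding or not, had the higher level. Among them was *ddr48*, which shares 82 bases with the stronger *avl9* and 1241 with the weaker SPNCRNA.832.

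Within 100 kb of the ends of chromosomes I and II, 93 loci were tested, of which 5 fell (*cmt2*, *nam3*, SPBC1348.12, *grt1* and *fub2*) and 1 rose (*pho84*), 5.38% against a background of 0.712% lower and 1.08% against 2.42% higher. Their median was -0.23, and 25 of 93 lay wholly below and 4 wholly above in the libraries, against 9.02% and 13.0% of all loci. These loci are mostly scarce, and non-coding loci and scarce loci had lower medians in the whole table as well, and the position was not separated from the level. The number that fell was 1 without *swd22*Δ replicate 1, 3 without *ppn1*Δ replicate 3 or *swd22*Δ replicate 3, 8 without *ppn1*Δ replicate 1 and 13 without *swd22*Δ replicate 2. *gdt1*, near the right end of chromosome I, had the lowest difference of all 6043 loci at -1.91, but it rested on *ppn1*Δ replicate 1, with 237 normalized counts against 8.18 and 38.5 in the other replicates and 10.7 to 41.2 in *swd22*Δ (adjusted p 0.54).

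The remaining lists held few calls. Over all loci 2.42% were called higher and 0.712% lower. In the splicing list *bpb1*, for the branch point binding protein (0.36), and the U1 snRNP genes *usp109* (0.33) and *usp108* (0.30) rose and 0 of 59 fell. That was 5.08% called higher, but the list leaned the other way. Its median was -0.07, with 17 differences positive and 42 negative. In the ergosterol list of 22 the paralogs of C-5 sterol desaturase went opposite ways, *erg31* higher (0.30, adjusted p 0.033) and *erg32* lower (-0.25, adjusted p 0.050). In the proteasome list the regulatory subunit gene SPCC18.17c rose (0.45) and the scarce *fub2* fell (-1.01) among 44. Single genes rose among mitochondrial ribosomal proteins (*mrpl10*, 0.39), silencing factors (*clr3*, a histone deacetylase, 0.29) and regulators of flocculins (*tup11*, a corepressor, 0.27). These lists held 75, 19 and 17 measured genes. Of the 75 mitochondrial ribosomal genes 23 differences were positive and 52 negative. In the libraries 5 of them lay wholly above and 14 wholly below. By edgeR, 0 members were called among 13 iron acquisition genes, 16 subunits of the V-type ATPase, 27 genes of nuclear RNA decay, 14 amino acid permeases, 23 cell wall genes, 19 mating genes, 13 meiotic genes, 16 nitrogen starvation genes, 8 thiamine-repressed genes, 6 uracil-regulated genes, 11 copper and zinc genes, 15 phosphatases related to PP1 and 11 genes of kinases that act on the tail of polymerase II; DESeq2 called 1 of these 186 genes, and 24 had an unadjusted p under 0.05. Over all loci 3.13% were called by edgeR, and 1096 of 6043 had an unadjusted p under 0.05. Lists of this size can thus hold 0 calls without differing from the other loci. Further large called rises outside the lists were those of SPCC330.03c, a cytochrome b5 reductase (0.74), SPBP8B7.26 (0.68), SPCC584.16c (0.57), *rlp1*, a RecA family ATPase (0.55), and the uricase gene *uro1* (0.54).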

How the data were processed

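Poly(A)+ RNA of *S. pombe* was sequenced from 3 biological replicates of each of 4 strains; the labels do not say more of how replicates were grown. The deposited values are raw counts per locus: per the study's methods and the submitters' processing notes, the authors mapped paired reads of 51 bases with HISAT2 2.1.0, used SAMtools, and counted reads on annotations of ASM294v2 with HTSeq 0.10.0. Names, classes, strands and positions came from the later build ASM294v3, which 6837 of 6986 IDs matched; no coordinates were converted, and no sequences are printed.

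Here the 3 *swd22*Δ and 3 *ppn1*Δ libraries were fitted by edgeR 4.0.16 under R 4.3.3 (low counts removed by filterByExpr, TMM factors, robust quasi-likelihood fit, common dispersion 0.0071). At 17616688 to 23435936 counts a library, the spread between replicates sets the precision of abundant genes and counting noise that of scarce ones. Confidence intervals are 95% intervals of the fitted difference. Wild-type and *dis2*Δ entered only the distances, the levels given on the scale of 12 libraries, and alternatives. Python 3.11.15 with pandas 2.3.3 and matplotlib 3.10.9 made the tables and figures.

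The comparison, the gene lists and the genes named were chosen with earlier results of these data known. Named by rule were the loci set apart and their neighbors, the 10 coding genes and 5 other loci of largest called difference in each direction with a mean of at least 100 normalized counts, up to 4 called or defining genes of each list, CPF subunits, and *pho1*, *pho84*, *tgp1*, SPBC19C7.04c and *dis2*. *leu1*, *arg3*, *fba1*, *gpm1*, *adh1*, *rps2*, *rpp102*, *rps1001*, *rpl1601*, *grt1*, *gdt1*, SPNCRNA.576 and SPNCRNA.316 were chosen after their values were seen. The alternatives were DESeq2 1.42.0, other scalings and count filters, all 12 libraries, the replicate number as a block, other cutoffs, each library left out in turn and, added after the data were seen, corrections for GC content and length.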

Additional observations from a re-analysis of the deposited data

How the results depend on the processing

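The closeness of the strains held in every alternative run: 4542 to 5104 loci had an interval within 1.5-fold, against 5013, and 4662 to 4939 when 1 library was left out. The number of called loci did not hold. Against 189 (146 higher and 43 lower in *swd22*Δ), fitting all 12 libraries gave 425 (347 and 78), DESeq2 285 (227 higher), library size only 113 (66 higher), an adjusted p cutoff of 0.01 61 (50 and 11), GC and length correction 118 (83 higher), and a test against a 1.2-fold threshold 5 (3 and 2). Leaving out 1 library gave 50 to 595 calls, 37 to 363 of them higher and 13 to 232 lower. Loci passing the study's cutoffs, apart from those set apart, numbered 0, or 0 to 2 with 1 library left out, 3 with no mean-count cutoff and 8 with a 1.5-fold cutoff. The share of calls that were higher was 77.2%, and 64.8% with the replicate block, 58.4% with library size only and 61.0% to 74% with 1 library left out. All 189 called loci that were in a fit kept their direction; 2 were not in the fit with at least 10 counts in every library.

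Samples with the same replicate number did not deviate together (correlation of their deviations from the strain means 0.15, 0.14 and -0.28 over 5169 loci). Not every sample correlated best with its own number. The correlations of largest size joined different numbers. *ppn1*Δ replicate 1 was at 0.57 with *swd22*Δ replicate 3 and at -0.58 with *swd22*Δ replicate 2. With the replicate block 210 loci were called, 136 higher and 74 lower, and 153 of the 189 were called again; all 12 libraries with the replicate block gave 440 (350 and 90). The 92 loci named by rule include loci that had no call to lose, such as *pho1*, *dis2* and the CPF core subunits. Of the others, 12 lost their call with the block, 30 with library size only and 26 with GC correction. With 1 library left out 1 to 48 lost it, and no sign of a called gene reversed. The causes were not tested. Depth limits the scarce loci: the 843 tested loci under a mean of 100 counts held 5 of the 189 calls.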
